A study of Mus musculus with 12 samples.

Results

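The genes described here make, move, sense and store cholesterol. A list of 28 mouse gene symbols was drawn up by function: 18 enzymes of cholesterol synthesis, 4 regulators of the transcription factor SREBP2, 4 genes of sterol transport and lysosomal export, and 2 genes of cholesteryl ester formation and hydrolysis. This list was chosen with earlier results of these data known. Its shares of called genes, set beside those of all genes, are therefore descriptions and not independent tests. The gene table held 31332 genes, and 27 of the 28 symbols had a row in it; Hmgcs1 was not analysed here. All 27 passed the filter on low counts, and so were among the 17268 genes tested.

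The RNA came from thymic epithelial cells of C57BL6/J mice aged 2 months, sorted by flow cytometry into cortical (cTEC) and medullary (mTEC) cells. Every mouse carried floxed alleles of both liver X receptor genes, labelled LXRalpha flox LXR beta flox, and the Cre groups also carried FoxN1 Cre. There were 4 groups of 3 libraries: control mTEC (libraries 1 to 3), control cTEC (libraries 7 to 9), Cre mTEC (libraries 4 to 6) and Cre cTEC (libraries 10 to 12). Foxn1 encodes the transcription factor that defines thymic epithelium, a factor present in cortical and medullary cells alike. The labels do not give the construct of the Cre allele, the floxed exons, the sorting markers or the number of animals behind a library. No group carried Cre without floxed alleles, so Cre itself and the loss of the receptors cannot be told apart. Nothing states that the libraries of a group came from separate animals, so the p-values measure the spread between these libraries, which may be technical.

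Cells build cholesterol from acetyl-CoA through mevalonate, isoprenoids, squalene and lanosterol. When sterols are scarce in the endoplasmic reticulum, SCAP escorts the membrane-bound factor SREBP2 to the Golgi, where it is cut and released to switch on the synthesis enzymes, and INSIG proteins hold the complex back when sterols are plentiful. Liver X receptors are nuclear receptors for oxidised sterols that switch on sterol export genes when cholesterol is abundant, so the pair of systems respond to sterols in opposite senses. Cortical thymic epithelial cells support early thymocyte development and positive selection, and medullary cells display tissue antigens to maturing T cells.

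Levels are given as CPM, a count scaled to the size of its library, after scaling of library sizes by the trimmed mean of M values (TMM). Libraries held 4804697 to 11159013 counts in genes, and 1 count was worth 0.0898 to 0.194 CPM. A gene is called when its adjusted p (edgeR's quasi-likelihood test, two-sided, Benjamini-Hochberg over all 17268 genes) is under 0.05. Nr1h2, which encodes LXRbeta, stood at 168, 158 and 192 CPM in control cTEC against 119, 102 and 124 CPM in Cre cTEC, and it fell by 0.58 on the log2 scale (SE 0.13, adjusted p = 0.00566). Its mTEC level was 110, 126 and 132 CPM in the controls against 96.2, 71.1 and 70.5 CPM in Cre libraries, a fall by 0.63 (SE 0.13, adjusted p = 0.0158) that was lost without library 2, 3 or 5 (highest adjusted p 0.131). Nr1h3, which encodes LXRalpha, stood at 10.7, 6.39 and 6.00 CPM in control cTEC against 8.05, 7.58 and 9.50 CPM in Cre cTEC. In mTEC it was at 5.84, 6.13 and 6.93 CPM without and 7.91, 9.19 and 5.85 CPM with Cre. The groups overlapped, and it was not called in either cell type (adjusted p = 0.869 in cTEC and 0.67 in mTEC). These counts cover the whole gene, so reads outside a deleted part would remain. Foxn1 itself stood at 271, 354 and 329.7 CPM in control cTEC against 73.2, 166 and 94.7 CPM in Cre cTEC, and fell by 1.53 (SE 0.35, adjusted p = 0.00851) in Cre cTEC and by 1.63 (SE 0.35, adjusted p = 0.0216) in Cre mTEC. A robust fit ended both calls (adjusted p = 0.131 in cTEC), and the mTEC call was also lost with DESeq2 and without library 1, 3 or 5 (highest adjusted p 0.185 over these). The labelled cell types matched their markers: summed over 8 cTEC markers the level was 6837 to 8394 CPM in control cTEC against 1750 to 2023 CPM in control mTEC, and summed over 8 mTEC markers it was 1456 to 1581 and 5364 to 5635 CPM. Of those mTEC markers 1, Ccl21a, had no count in any library of 3 groups, the control mTEC among them.

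RefSeq promoter windows of the GRCm38.p6 build, from 250 bases before to 50 bases after an annotated gene start, were matched for 22 of the 27 genes. Those of Fdps, Fdft1, Sqle, Stard4 and Npc1 were not among them. Each window was searched on both strands for TCACNCCA, a form of the sterol regulatory element that SREBP2 binds, for CCAAT, the box bound by the factor NF-Y that works beside SREBP2 at sterol genes, and for the palindrome TCACGTGA; no match to one motif overlapped a match to another. At least 1 CCAAT lay in a window of 20 of the 22 genes, or 90.9%. It lay in a window of 41.1% of all 27025 genes with a RefSeq window and of 42.2% of 13087 of the genes tested. Counted by window, since some genes have several starts, 20 of 28 windows held it, or 71.4%, against 37.4% of 32851. Of the sterol enzymes 8 of 8 held a CCAAT, and the 2 genes without one were Acat2 and Scap. Both were called between Cre and control cTEC, and every gene with a window that was not called there held a CCAAT. TCACNCCA was found for 2 genes, Sc4mol and Srebf2, or 9.1% of the 22 against 5.0% of all, and TCACGTGA for 0 of 22 against 1.1%. A match is only a description of the letters, and the absence of one concerns this window alone. The windows below belong to some of the genes called between Cre and control cTEC. Windows of Nsdhl, Dhcr7 and Nceh1, which were also called, and a second window of Scap are not printed. Matches to CCAAT or TCACNCCA are in capitals, reading 5′ to 3′ on the strand of the gene, with a match on the other strand shown as its reverse complement (ATTGG for CCAAT).
Acat2 chr17:12960676-12960975 minus strand: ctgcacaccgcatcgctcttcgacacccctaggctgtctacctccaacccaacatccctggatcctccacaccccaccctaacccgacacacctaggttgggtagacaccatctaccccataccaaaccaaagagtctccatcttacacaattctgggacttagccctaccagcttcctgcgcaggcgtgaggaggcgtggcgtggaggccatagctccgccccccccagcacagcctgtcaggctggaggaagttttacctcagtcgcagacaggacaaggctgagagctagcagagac
Mvd chr8:122443373-122443672 minus strand: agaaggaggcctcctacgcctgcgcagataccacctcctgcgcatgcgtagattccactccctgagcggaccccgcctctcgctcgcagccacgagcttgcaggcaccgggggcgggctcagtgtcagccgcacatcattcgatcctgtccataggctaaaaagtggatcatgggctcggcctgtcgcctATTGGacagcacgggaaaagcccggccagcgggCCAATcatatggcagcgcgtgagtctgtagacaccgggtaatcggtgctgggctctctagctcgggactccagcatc
Idi1 chr13:8885356-8885655 plus strand: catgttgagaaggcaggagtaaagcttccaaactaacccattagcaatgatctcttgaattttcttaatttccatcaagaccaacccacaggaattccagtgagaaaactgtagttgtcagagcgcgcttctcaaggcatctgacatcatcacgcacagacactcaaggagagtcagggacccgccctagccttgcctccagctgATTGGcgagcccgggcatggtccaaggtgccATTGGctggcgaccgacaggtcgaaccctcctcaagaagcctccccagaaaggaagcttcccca
Cyp51 chr5:4104648-4104947 minus strand: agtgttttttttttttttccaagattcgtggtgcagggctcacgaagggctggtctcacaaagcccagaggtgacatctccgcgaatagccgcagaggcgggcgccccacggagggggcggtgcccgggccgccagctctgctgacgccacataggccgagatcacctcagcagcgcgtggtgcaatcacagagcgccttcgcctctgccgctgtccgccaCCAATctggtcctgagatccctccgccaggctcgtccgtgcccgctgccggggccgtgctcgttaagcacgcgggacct
Sc4mol chr8:64733529-64733828 minus strand: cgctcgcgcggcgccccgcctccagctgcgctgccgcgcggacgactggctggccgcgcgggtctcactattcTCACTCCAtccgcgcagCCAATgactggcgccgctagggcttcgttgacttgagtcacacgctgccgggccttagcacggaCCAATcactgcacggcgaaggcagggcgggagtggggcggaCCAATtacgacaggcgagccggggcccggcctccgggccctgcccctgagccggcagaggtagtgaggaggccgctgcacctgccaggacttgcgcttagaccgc
Hsd17b7 chr1:169969156-169969455 minus strand: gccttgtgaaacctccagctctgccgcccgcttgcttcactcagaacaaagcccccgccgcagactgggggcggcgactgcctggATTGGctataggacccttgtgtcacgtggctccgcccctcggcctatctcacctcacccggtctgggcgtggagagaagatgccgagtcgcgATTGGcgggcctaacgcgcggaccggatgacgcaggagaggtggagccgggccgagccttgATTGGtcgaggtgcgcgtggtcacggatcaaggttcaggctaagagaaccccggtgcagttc
Srebf2 chr15:82147019-82147318 plus strand: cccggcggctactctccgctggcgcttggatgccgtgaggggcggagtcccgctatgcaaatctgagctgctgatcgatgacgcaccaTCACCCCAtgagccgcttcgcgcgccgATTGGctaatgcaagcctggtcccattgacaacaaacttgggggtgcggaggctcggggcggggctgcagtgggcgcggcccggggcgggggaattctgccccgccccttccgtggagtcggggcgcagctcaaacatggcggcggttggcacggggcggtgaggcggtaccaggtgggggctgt
Insig1 chr5:28071162-28071461 plus strand: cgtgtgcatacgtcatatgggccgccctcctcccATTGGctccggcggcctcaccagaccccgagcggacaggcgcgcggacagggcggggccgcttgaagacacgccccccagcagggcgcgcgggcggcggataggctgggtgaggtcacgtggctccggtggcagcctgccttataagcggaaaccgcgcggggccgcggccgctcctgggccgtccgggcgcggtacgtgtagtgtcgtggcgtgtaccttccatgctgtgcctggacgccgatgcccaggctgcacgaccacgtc
Scap chr9:110333038-110333337 plus strand: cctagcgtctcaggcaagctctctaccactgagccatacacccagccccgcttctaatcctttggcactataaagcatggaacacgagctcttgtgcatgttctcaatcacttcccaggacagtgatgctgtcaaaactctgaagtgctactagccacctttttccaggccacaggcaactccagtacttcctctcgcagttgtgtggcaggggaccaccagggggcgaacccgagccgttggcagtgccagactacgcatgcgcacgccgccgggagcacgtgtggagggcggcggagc

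In Sc4mol the TCACNCCA match began 177 bases before the gene start and was followed by 3 CCAAT matches. In Srebf2 it began 162 bases before the start, with 1 CCAAT match in reverse after it. No match to any of the 3 motifs lay in the windows of Acat2, which fell in Cre cTEC, or of Scap, which rose.

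**Figure D1:**
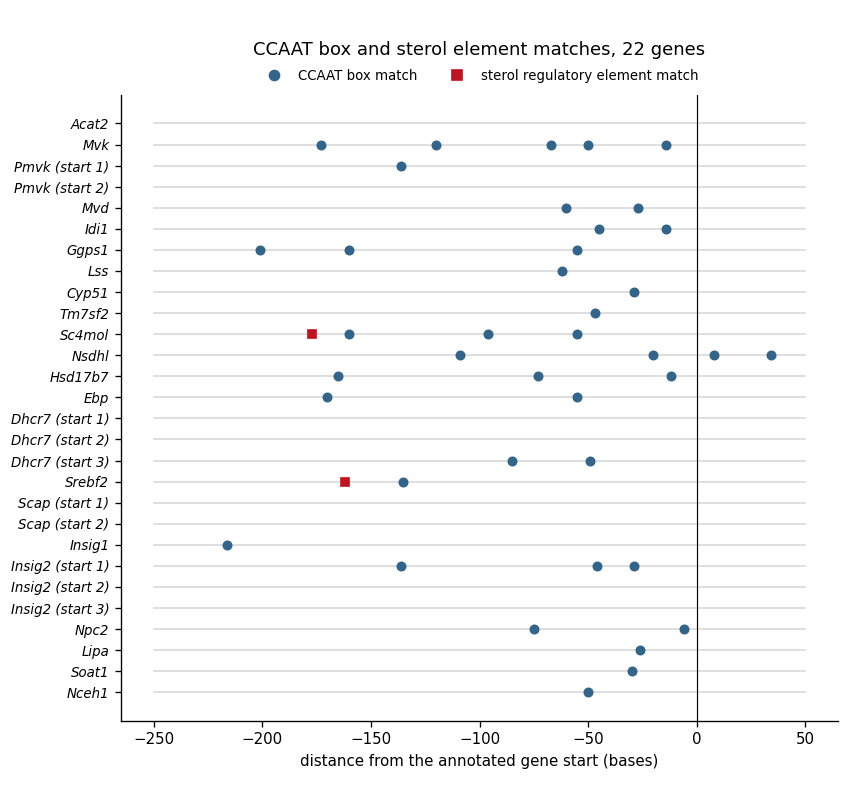
Positions of motif matches in the RefSeq promoter windows of 22 genes; the x axis is the distance in bases from the annotated gene start, each grey line is a window, circles are CCAAT matches and squares are TCACNCCA matches. 20 of the 22 genes have a circle, and Sc4mol and Srebf2 have a square.

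Comparing Cre with control libraries asks what goes with FoxN1 Cre in each cell type. In cTEC, 15 of the 27 genes fell in Cre libraries and 1 rose, while 3.38% of all genes tested were called lower and 5.62% higher. The median of the 27 was a log2 fold change of -0.61, against -0.02 over all genes tested, and 23 of 27 were negative. The synthesis pathway carried most of this: 11 of its 17 measured enzymes fell, all 17 estimates were negative, and their median was -0.70. Between the groups 15 of the 27 genes showed no overlap with every Cre library lower, which 10.1% of all genes tested also did. In these bulk samples, fewer cells of a type and less RNA per cell cannot be told apart. Of the 15 falls, 9 were called with any 1 of the 6 cTEC libraries left out: Fdps, Fdft1, Cyp51, Sc4mol, Hsd17b7, Srebf2, Insig1, Stard4 and Nceh1.

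Summed over the 17 synthesis enzymes, the level was 487, 661 and 815 CPM in control cTEC libraries 7 to 9 and 419, 307 and 389 CPM in Cre cTEC libraries 10 to 12. The groups did not overlap, but the controls spread widely: all 17 enzymes in library 7 lay below their control mean, and none did in library 9. Among Cre libraries, library 11 was lowest, with a median log2 difference from the control mean of -1.07 over the 17 enzymes against -0.51 and -0.54 in libraries 10 and 12. Library 11 also held the fewest counts. The number of members called lower was 9 without library 9 and 15 with it.

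**Figure D2:**
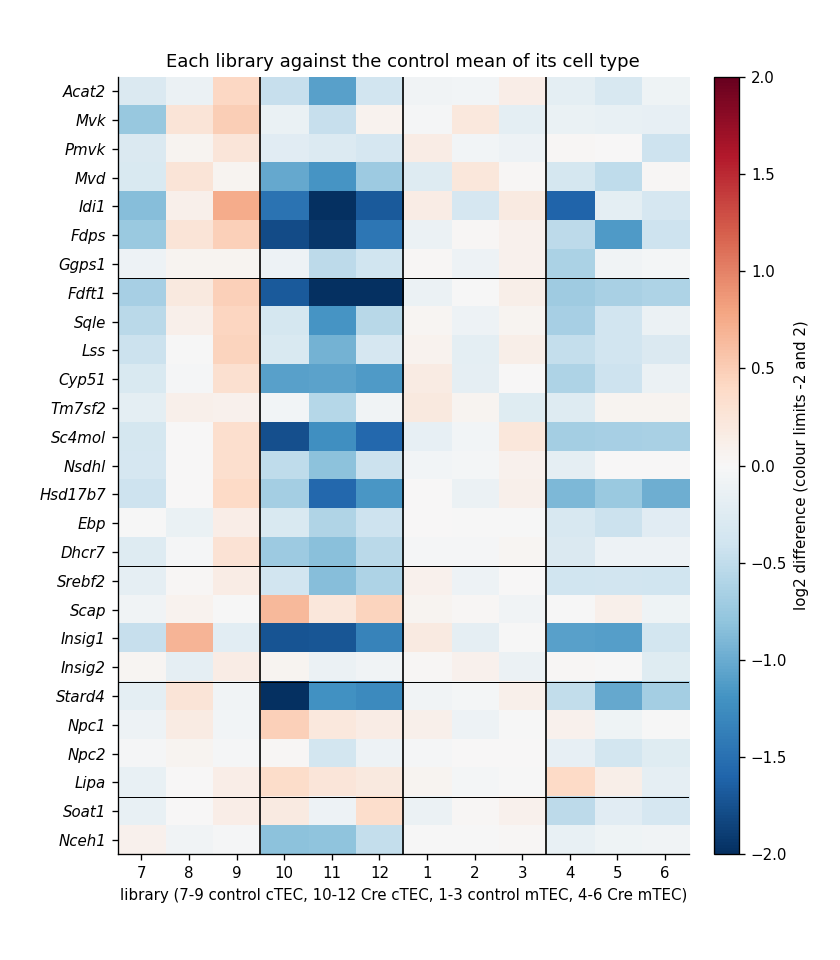
Log2 difference of each of 27 genes in each of 12 libraries from the mean log2 level of the control libraries of the same cell type; rows are ordered by role with lines between roles, and colours run from -2 (blue) to 2 (red). Blue fills most synthesis rows of libraries 10 to 12, is paler in libraries 4 to 6, and appears faintly in control library 7.

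The mevalonate enzymes turn acetyl-CoA into the isoprenoid units. Acat2, whose product joins acetyl-CoA units at the head of the pathway, stood at 27.1, 30.6 and 44.2 CPM in control cTEC against 24.03, 15.7 and 25.6 CPM in Cre cTEC, lower in every Cre library than in any control. It fell by 0.63 (SE 0.18, adjusted p = 0.0345), a call lost without library 9 or library 11 (highest adjusted p 0.292). Mvd, the decarboxylase that yields isopentenyl diphosphate, stood at 5.71, 8.41 and 7.28 CPM in the controls against 3.46, 3.11 and 4.24 CPM in Cre cTEC, again without overlap. Its fall by 0.98 (SE 0.25, adjusted p = 0.0169) was lost on leaving out library 8, 9 or 10 (highest adjusted p 0.0777). Idi1, the isomerase that supplies dimethylallyl diphosphate, was scarce, at 1.04, 2.02 and 3.14 CPM against 0.671, 0.389 and 0.585 CPM, and its lowest library held 2 counts. Although its groups did not overlap and its fall by 1.86 (SE 0.58, adjusted p = 0.0382) was among the steepest of the list, it was lost on leaving out library 8, 9, 10, 11 or 12 (highest adjusted p 0.26). Fdps, the farnesyl diphosphate synthase at the branch between sterols and other isoprenoids, stood at 7.61, 15.3 and 17.8 CPM in the controls against 3.69, 3.30 and 4.68 CPM in Cre cTEC. Every Cre library was below library 7, the lowest control, and the fall by 1.80 (SE 0.29, adjusted p = 4.02e-04) came to 3.48-fold. Mvk and Pmvk, the kinases that phosphorylate mevalonate in turn, and Ggps1, which makes geranylgeranyl diphosphate for protein prenylation instead of sterols, overlapped between genotypes and were not called. With offsets for gene length and GC content, Acat2 (adjusted p = 0.15) and Idi1 (adjusted p = 0.0793) were also lost, and in a fit of only the cTEC libraries Acat2 (adjusted p = 0.0693) and Mvd (adjusted p = 0.0644); voom lost Mvd at adjusted p = 0.052. The log2 fold changes of Mvk, Pmvk and Ggps1 were -0.25 (SE 0.24), -0.30 (SE 0.18) and -0.32 (SE 0.14). Ggps1 was called with voom.

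From squalene onwards the enzymes make only sterols. Fdft1, squalene synthase, which commits farnesyl diphosphate to sterols, had the steepest fall of the 27 in cTEC. It stood at 28.01, 50.96 and 61.8 CPM in control cTEC against 13.97, 8.94 and 10.1 CPM in Cre cTEC. The lowest control, library 7, was above every Cre library, and the fall by 2.07 (SE 0.23, adjusted p = 1.04e-05) was 4.19-fold. The longest overlap of an exon of Fdft1 with an exon of Ctsb, on the opposite strand in GENCODE M21, was 774 bases. The kit is not described as stranded, and Ctsb itself fell by 0.37 (SE 0.11, adjusted p = 0.0339). That Ctsb call was lost without library 7, 8, 9 or 10, without a filter, with the offsets for length and GC content and in a fit of only the cTEC libraries (adjusted p up to 0.303). Sqle, squalene epoxidase, a rate-limiting step, stood at 107, 166 and 208 CPM and 121, 68.2 and 105 CPM, so that Cre library 10 lay above control library 7. Its fall by 0.70 (SE 0.20, adjusted p = 0.037) was lost on leaving out library 8, 9, 11 or 12 (highest adjusted p 0.265). It was also lost in a robust fit, with the length and GC offsets and in a fit of only the cTEC libraries (adjusted p up to 0.125). Lss, the cyclase that folds the chain into lanosterol, overlapped and was not called (-0.54, SE 0.18, adjusted p = 0.0802). It was called without a filter, with a filter at 5 CPM and without library 7 (adjusted p = 0.0161 without library 7).

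The remaining enzymes trim lanosterol to cholesterol. Cyp51, the lanosterol 14-alpha-demethylase, stood at 38.04, 46.2 and 58.8 CPM in the controls against 22.1, 22.3 and 21.4 CPM in Cre cTEC. The Cre libraries were almost equal and lay below all controls, with a fall by 1.12 (SE 0.16, adjusted p = 1.62e-04). Sc4mol, now named Msmo1, the C4-methylsterol oxidase, stood at 60.9, 78.2 and 97.8 CPM in the controls against 22.8, 33.03 and 26.02 CPM in Cre cTEC. The lowest control was well above the highest Cre library, and the gene fell by 1.55 (SE 0.16, adjusted p = 8.34e-06), or 2.93-fold. Nsdhl, which removes the C4 carboxyl group left by that oxidase, stood at 21.8, 27.6 and 34.7 CPM and 19.3, 15.5 and 20.3 CPM. Its groups did not overlap, and its fall by 0.60 (SE 0.16, adjusted p = 0.0224) was lost on leaving out library 9 (adjusted p = 0.198) and with the length and GC offsets (adjusted p = 0.19). Hsd17b7, the 3-ketosterol reductase that completes the C4 demethylation, stood at 29.9, 40.4 and 52.96 CPM and 25.04, 13.4 and 17.8 CPM. All Cre libraries were below all controls, and it fell by 1.11 (SE 0.20, adjusted p = 0.00121). Dhcr7, the last reductase on the way to cholesterol, stood at 15.04, 17.8 and 21.98 CPM and 10.9, 10.1 and 12.4 CPM. It fell by 0.71 (SE 0.17, adjusted p = 0.00829) without overlap, a call lost on leaving out library 9 (adjusted p = 0.0854). Ebp, the sterol isomerase, did not overlap but missed the threshold (-0.43, SE 0.14, adjusted p = 0.0568), and Tm7sf2, a sterol C14 reductase, overlapped (-0.20, SE 0.18). Ebp was called with voom and with the filter at 5 CPM.

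Among the regulators, 2 fell, 1 rose and 1 was not called. Srebf2, which encodes SREBP2, stood at 293, 337 and 365 CPM in control cTEC against 254, 183 and 215 CPM in Cre cTEC. Its groups were separate, and it fell by 0.61 (SE 0.12, adjusted p = 0.0028). Insig1, the retention protein that is itself an SREBP target, stood at 13.8, 30.6 and 16.6 CPM and 5.81, 5.83 and 7.60 CPM. Control library 8 stood highest, all Cre libraries lay below all controls, and the gene fell by 1.66 (SE 0.27, adjusted p = 5.40e-04). Insig2, its paralogue, stood at 90.1, 77.4 and 98.1 CPM and 91.3, 81.6 and 84.1 CPM. Those groups overlapped fully, at -0.05 on the log2 scale (SE 0.11, adjusted p = 0.91). Scap, the escort of SREBP2, stood at 94.2, 104 and 98.6 CPM in the controls against 155, 115 and 135 CPM in Cre cTEC, higher in every Cre library. It rose by 0.45 (SE 0.11, adjusted p = 0.0144), a call lost without library 7, 9 or 10 and with offsets for gene length and GC content (adjusted p = 0.0899 with the offsets).

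Of the transport genes, Stard4 fell. Stard4, a cytosolic carrier of cholesterol, stood at 4.32, 5.89 and 4.71 CPM in control cTEC against 1.01, 2.14 and 2.05 CPM in Cre cTEC. Its groups did not overlap, and its fall by 1.58 (SE 0.31, adjusted p = 0.00191) rested on low counts, 9 in the lowest library. Npc1 and Npc2, which pass cholesterol out of lysosomes, and Lipa, the acid lipase that frees it there from incoming lipoproteins, were not called, with log2 fold changes of 0.29 (SE 0.12), -0.14 (SE 0.11) and 0.27 (SE 0.14). In the storage pair, Nceh1, a hydrolase of cholesteryl esters, stood at 68.1, 60.5 and 63.1 CPM and 36.3, 36.7 and 46.05 CPM. Without overlap, it fell by 0.69 (SE 0.11, adjusted p = 4.79e-04). Soat1, the acyltransferase that makes the esters, overlapped (0.15, SE 0.13, adjusted p = 0.62).

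**Figure D3:**
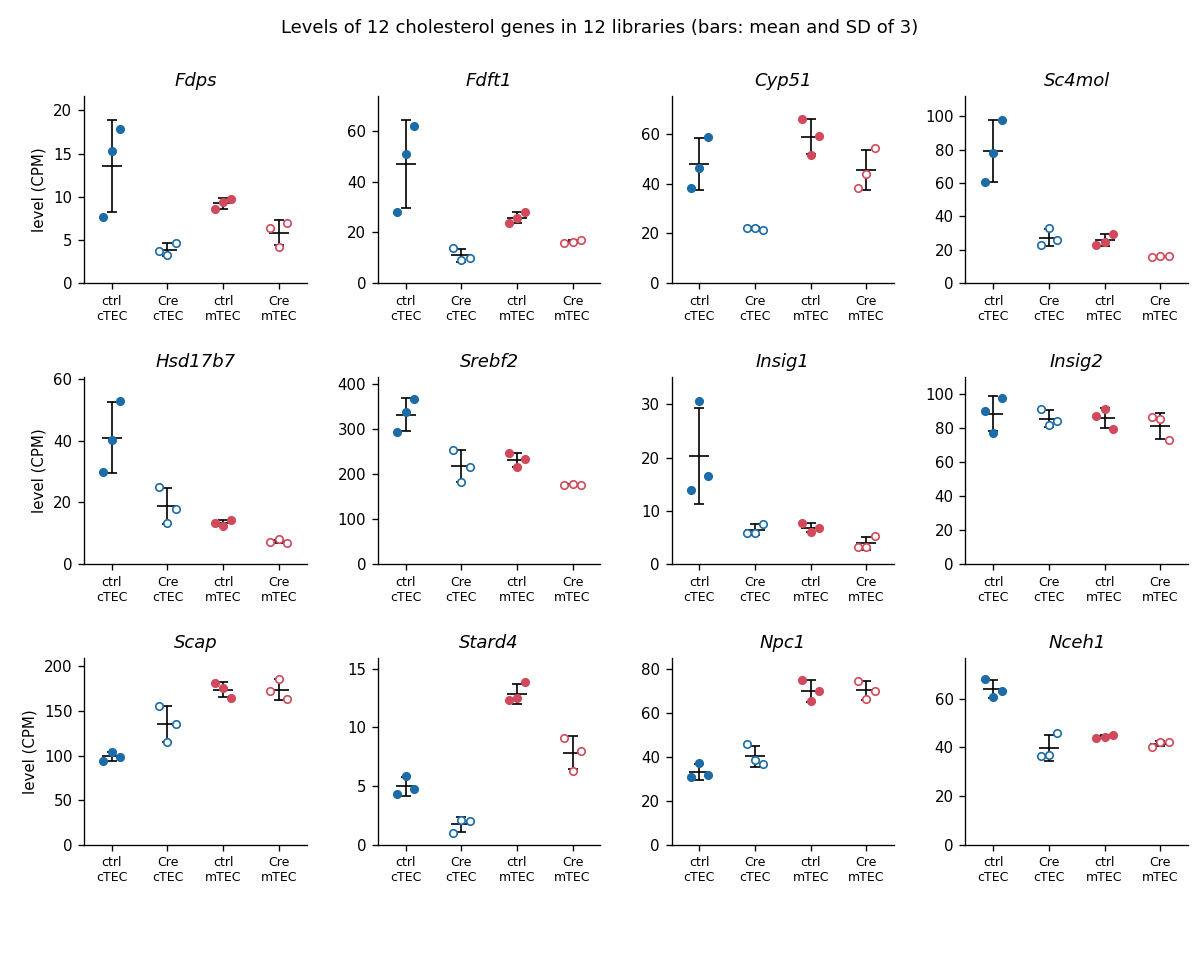
Levels in CPM of 12 genes in every library; filled points are control and open points Cre libraries, blue is cTEC and red mTEC, and bars give the mean and SD of 3 libraries on linear axes that start at 0. Open blue points lie below filled blue points for Fdft1, Sc4mol, Insig1 and Stard4, above them for Scap, and among them for Insig2.

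Markers of other cells were summed beside these results. In control and Cre cTEC, 9 thymocyte markers summed to 129 to 202 and 153 to 178 CPM, 8 macrophage and dendritic markers to 41.7 to 61.4 and 38.1 to 47.2 CPM, and 13 markers of dividing cells to 227 to 265 and 219 to 272 CPM; none of these was called. The sums of 4 B cell markers were 6.74 to 8.14 and 4.02 to 10.5 CPM, also with none called. For 5 endothelial markers the sums were 13.5 to 27.98 and 10.5 to 18.5 CPM with Plvap lower, and for 5 fibroblast markers 170.0 to 229 and 154 to 328 CPM with Lum lower and Col3a1 higher. Erythroid markers summed to 3.29 to 8.56 and 7.75 to 71.6 CPM, highest in library 10, with none called. The cTEC markers moved as well: 5 of 8 rose (Ccl25, Dll4, Ly75, Prss16 and Psmb11) and Foxn1 fell, with sums of 6837 to 8394 and 7580 to 15580 CPM. The mTEC marker sums were 1456 to 1581 and 850 to 1045 CPM, with Krt5 lower and Fezf2 and Tnfrsf11a higher. Their part in the fall of the cholesterol genes was not tested.

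In mTEC none of the 27 genes was called lower or higher by the main edgeR fit, against 1.49% of all genes called lower and 0.585% called higher. At an unadjusted p under 0.05 by the same test there were 11 of the 27, against 2528 of all 17268 genes tested. Alternatives made calls. Other edgeR settings called 5 members lower without a filter (674 of all genes) and 5 with only the libraries compared (685). They called 2 with DESeq2 size factors (346 of all genes), 2 with a filter at 5 CPM (299) and 2 with the length and GC offsets (302). A robust fit called 0 (265 of all genes). DESeq2 called 4 of the members lower and limma's voom with quality weights 7. Over all genes these tools called 473 and 1099 lower. The estimates were negative for 25 of 27, with a median of -0.27 against 0.01 over all genes, and for all 17 synthesis enzymes, with a median of -0.32. In 15 of 27 genes every Cre library lay below every control library, which was so for 12.8% of all genes tested. The sum over the 17 synthesis enzymes was 458, 428 and 470 CPM in control libraries 1 to 3 and 315, 352 and 394 CPM in Cre libraries 4 to 6. Beside it, macrophage and dendritic markers summed to 250.4 to 330.0 CPM in control and 203 to 331 CPM in Cre mTEC, and markers of dividing cells to 610.0 to 681 and 523 to 721 CPM, with none called. Erythroid markers summed to 10.7 to 25.1 and 8.30 to 109.7 CPM, highest in library 4, also with none called. Of the cTEC markers, Foxn1 and Ccl25 fell, and of the fibroblast markers Col1a1. The summed fibroblast markers did not overlap, at 148 to 171 CPM in control and 87.9 to 129 CPM in Cre mTEC. Nor did the summed mTEC markers, at 5364 to 5635 and 4578 to 5203 CPM, although none of the 7 tested was called. Their part in the mTEC values was not tested.

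The enzymes nearest to the threshold in mTEC were Sc4mol and Hsd17b7. Sc4mol stood at 22.7, 24.5 and 29.7 CPM in control mTEC against 15.97, 16.1 and 16.3 CPM in Cre mTEC, without overlap and with Cre libraries almost equal (-0.66, SE 0.18, adjusted p = 0.0592). Hsd17b7 stood at 13.5, 12.2 and 14.4 CPM and 7.15, 7.98 and 6.80 CPM, also without overlap (-0.87, SE 0.24, adjusted p = 0.0618). Both were called by DESeq2 and by voom. Both were also called with DESeq2 size factors, without a filter, with the length and GC offsets and in a fit of only the mTEC libraries. Fdft1 stood at 23.8, 25.7 and 27.96 CPM in the controls against 15.7, 16.4 and 16.9 CPM in Cre mTEC (-0.66, SE 0.22, adjusted p = 0.128). Fdps stood at 8.53, 9.41 and 9.80 CPM and 6.39, 4.22 and 6.94 CPM (-0.65, SE 0.27, adjusted p = 0.254). In each of the pair the Cre libraries lay below the controls. Fdft1 was called without a filter and in a fit of only the mTEC libraries, and Fdps under none of the alternatives. Cyp51 stood at 65.9, 51.5 and 59.1 CPM and 38.3, 43.8 and 54.1 CPM, with Cre library 6 above control library 2 (-0.37, SE 0.15, adjusted p = 0.229). Sqle stood at 130.0, 118 and 131 CPM and 79.9, 97.3 and 117 CPM, just without overlap (-0.37, SE 0.20, adjusted p = 0.441).

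Other enzymes that fell in cTEC were further from the threshold here. Acat2 stood at 16.9, 17.1 and 19.6 CPM and 15.5, 14.3 and 16.7 CPM, just apart. Mvd stood at 10.4, 14.7 and 12.7 CPM and 9.74, 8.73 and 12.7 CPM, and Idi1 at 1.53, 1.09 and 1.57 CPM and 0.456, 1.21 and 1.09 CPM, both with overlap. Their log2 fold changes were -0.20 (SE 0.19), -0.27 (SE 0.21) and -0.59 (SE 0.52). Nsdhl stood at 16.4, 16.5 and 18.2 CPM and 15.1, 17.2 and 17.1 CPM, with overlap. Dhcr7 stood at 14.2, 14.2 and 14.9 CPM and 11.9, 13.4 and 13.5 CPM, narrowly without it. Their log2 fold changes were -0.05 (SE 0.16) and -0.16 (SE 0.16).

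Of the mTEC regulators, Srebf2 stood at 247, 216 and 233 CPM in control and 176, 177 and 175 CPM in Cre libraries (-0.40, SE 0.12, adjusted p = 0.105). Insig1 stood at 7.72, 6.02 and 6.79 CPM and 3.19, 3.16 and 5.30 CPM (-0.81, SE 0.31, adjusted p = 0.193). Both had all Cre libraries below all controls. Srebf2 was called with DESeq2, with voom, with the filter at 5 CPM and in a fit of only the mTEC libraries. Insig1 was called without a filter. Insig2 stood at 86.95, 91.3 and 79.5 CPM and 86.7, 85.2 and 72.8 CPM, and Scap at 181, 176 and 165 CPM and 172, 186 and 164 CPM. In both the groups overlapped, with log2 fold changes of -0.08 (SE 0.11) and 0.00 (SE 0.11). Stard4 stood at 12.3, 12.5 and 13.8 CPM and 9.13, 6.32 and 8.02 CPM, separate but short of the threshold (-0.71, SE 0.22, adjusted p = 0.105). It was called with voom, without a filter and in a fit of only the mTEC libraries. Nceh1 stood at 44.01, 44.3 and 45.1 CPM and 40.3, 42.01 and 42.3 CPM, a narrow gap without overlap (-0.10, SE 0.11, adjusted p = 0.764).

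**Figure D4:**
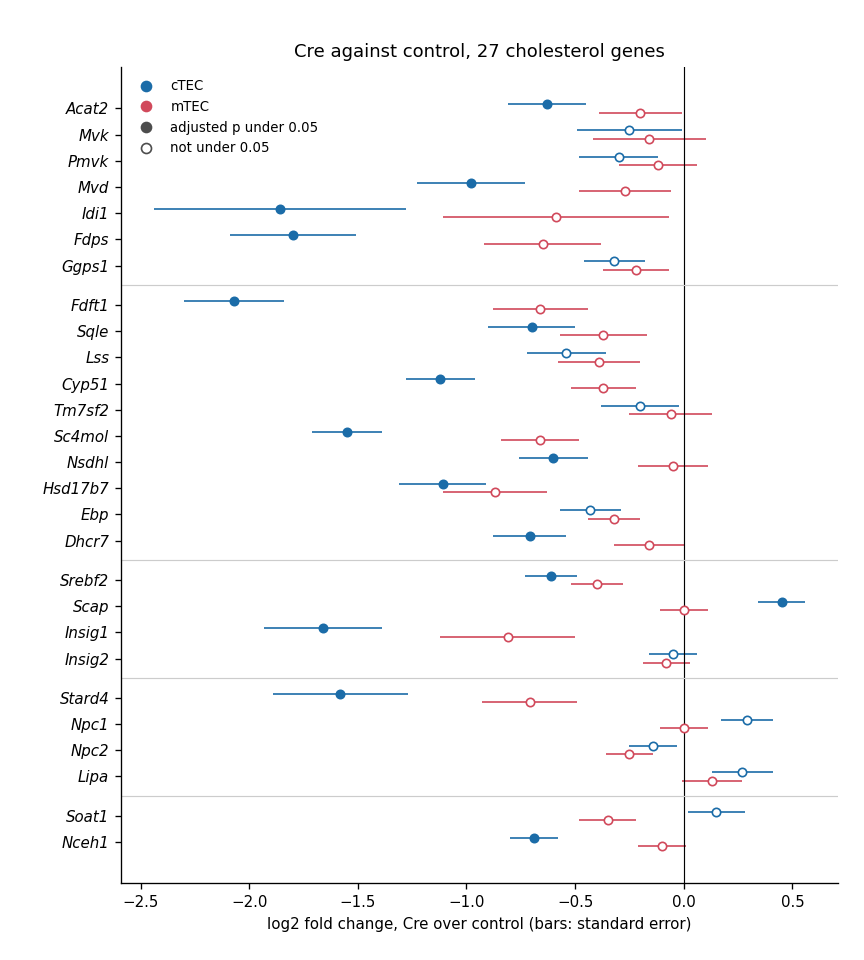
Log2 fold change of Cre over control for 27 genes in cTEC (blue) and mTEC (red), with bars of 1 standard error; filled points passed the threshold and open points did not. In cTEC 15 filled points lie below 0 and 1 above, and every mTEC point is open.

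A gene called in one cell type and not in the other is not thereby shown to differ, so the difference between the genotype effects was tested itself. Of the 27 genes 3 were called, all with the lower value in cTEC, against 1.08% of all genes called lower and 2.92% called higher. Fdft1 differed by -1.41 (SE 0.31, adjusted p = 0.0134), and this was called with any 1 of the 12 libraries left out (highest adjusted p 0.0466). Sc4mol differed by -0.89 (SE 0.24, adjusted p = 0.0427) and Nceh1 by -0.59 (SE 0.16, adjusted p = 0.0395). Both lay near the threshold: Sc4mol was lost on leaving out library 1, 2, 4, 5, 6, 8, 9, 10 or 12 (highest adjusted p 0.133), and Nceh1 without library 1, 2, 3, 4, 5, 6, 7, 9 or 10 (highest adjusted p 0.109). Sc4mol was also lost with DESeq2 size factors, the 5 CPM filter and offsets for gene length and GC content (adjusted p up to 0.136), and Nceh1 without a filter and with the offsets (adjusted p up to 0.239). All 17 synthesis enzymes had the more negative estimate in cTEC, with a median difference of -0.44 against -0.04 over all genes. Of the 11 enzymes that fell in cTEC, Hsd17b7 had the smallest difference, -0.24 (SE 0.31, adjusted p = 0.787). For Insig1 the difference was -0.85 (SE 0.41, adjusted p = 0.318), and for Scap 0.45 (SE 0.16, adjusted p = 0.127). The Scap difference was called with DESeq2, with voom, with the 5 CPM filter and without library 11.

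Apart from genotype, many of these genes differed in level between the cell types, as did many of all 17268 genes tested. In controls 13 of the 27 genes were lower and 6 higher in mTEC than in cTEC, against 30.0% and 29.3% of all genes tested. The median was -0.52 against -0.05 over all genes. Lower in mTEC were 9 of the 17 synthesis enzymes, led by Sc4mol (-1.63, SE 0.16, adjusted p = 5.81e-08) and Hsd17b7 (-1.63, SE 0.20, adjusted p = 1.36e-06). Mvk stood at 8.30, 16.6 and 19.7 CPM in control cTEC against 7.10, 8.31 and 6.27 CPM in control mTEC, where library 7 fell among the mTEC values (-1.05, SE 0.25, adjusted p = 0.00125). Of the regulators, Insig1 (-1.56, SE 0.26, adjusted p = 4.89e-05) and Srebf2 (-0.52, SE 0.12, adjusted p = 0.00128) were lower in mTEC. Higher in mTEC were Stard4 (1.37, SE 0.24, adjusted p = 5.77e-05), Npc1, Npc2, Scap, Mvd and Ebp. Npc1 stood at 30.8, 37.3 and 31.8 CPM in control cTEC against 75.4, 65.4 and 70.2 CPM in control mTEC, without overlap and with every mTEC library higher (1.08, SE 0.12, adjusted p = 2.23e-07). With offsets for gene length and GC content, Mvd, Ebp and Npc2 were no longer called. Beside these values, macrophage and dendritic markers summed to 41.7 to 61.4 CPM in control cTEC against 250.4 to 330.0 CPM in control mTEC, with 5 of 8 higher in mTEC and Mertk lower, and the 13 markers of dividing cells to 227 to 265 and 610.0 to 681 CPM, with all 13 higher. Thymocyte markers summed to 129 to 202 CPM in control cTEC and 84.4 to 104 CPM in control mTEC, with 7 of 8 tested lower in mTEC, and B cell markers to 6.74 to 8.14 and 16.4 to 21.7 CPM, with 3 of 4 higher. Of 4 endothelial markers tested 2 were higher, and of 5 fibroblast markers 2 were higher and 2 lower. Their part in the cell type differences was not tested.

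In the Cre libraries 9 of the 27 were lower in mTEC and 7 higher, against 24.5% and 25.1% of all genes, and the median was -0.07 against -0.02. Mvd (1.52, SE 0.24, adjusted p = 2.88e-05) and Cyp51 (1.05, SE 0.16, adjusted p = 2.08e-05) were higher in Cre mTEC than in Cre cTEC. Stard4 had the largest difference, 2.23 (SE 0.30, adjusted p = 2.36e-06). Npc1 stood at 45.9, 38.5 and 36.8 CPM in Cre cTEC and 74.8, 66.4 and 70.2 CPM in Cre mTEC, with no overlap (0.80, SE 0.12, adjusted p = 1.18e-05). Hsd17b7 remained lower in mTEC (-1.39, SE 0.24, adjusted p = 5.82e-05), as did Mvk at 12.7, 10.1 and 14.6 CPM in Cre cTEC and 6.54, 6.47 and 6.39 CPM in Cre mTEC (-0.96, SE 0.26, adjusted p = 0.00447). For Fdft1 the estimate was -0.87 in controls and 0.54 in Cre libraries (adjusted p = 0.067 in the latter). In Cre libraries it was called with DESeq2, without a filter, with the 5 CPM filter, with only the libraries compared and without library 10. Beside these values, macrophage and dendritic markers summed to 38.1 to 47.2 CPM in Cre cTEC and 203 to 331 CPM in Cre mTEC, with 5 of 8 higher in mTEC and Mertk lower, and all 13 markers of dividing cells were higher there, at 219 to 272 and 523 to 721 CPM. Thymocyte markers summed to 153 to 178 and 88.4 to 122 CPM, with 4 of 8 tested lower in mTEC, and 3 of 4 B cell markers were higher, at 4.02 to 10.5 and 14.2 to 17.6 CPM. Their part in these differences was not tested. The shift between the 2 comparisons is the same contrast as the difference of genotype effects above.

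**Figure D5:**
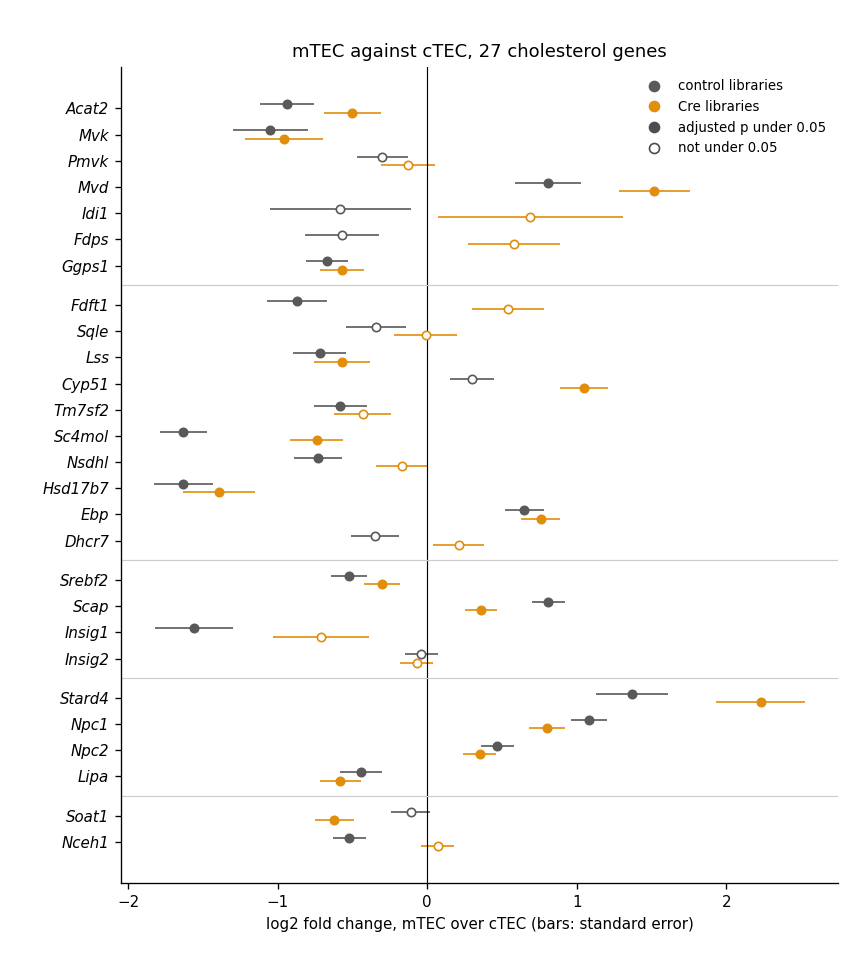
Log2 fold change of mTEC over cTEC for 27 genes in control (grey) and Cre (orange) libraries, with bars of 1 standard error; filled points passed the threshold. Stard4 and Npc1 lie to the right and Hsd17b7 and Sc4mol to the left in both genotypes, while Fdft1 is a filled point to the left in controls and an open point to the right in Cre libraries.

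Per kilobase of the longest annotated transcript, the levels of the 27 genes in control cTEC ran from 0.68 CPM for Idi1 and 0.98 CPM for Stard4 to 35.9 CPM for Sqle, 65.3 CPM for Srebf2 and 78.1 CPM for Npc2. In control mTEC they ran from 0.46 CPM for Idi1 to 41.1 CPM for Scap, 45.7 CPM for Srebf2 and 108 CPM for Npc2. The genes that fell in cTEC were found at both ends of that scale. Insig2 stood above Insig1 per kilobase in both control groups, at 32.8 and 7.54 CPM in cTEC and 31.9 and 2.54 CPM in mTEC.

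A second list, also chosen with earlier results of these data known, held 32 further gene symbols of the same processes. Of these, 31 had a row and were tested. In Cre cTEC 3 of them fell and none rose, with a median of -0.02, the same as over all genes tested, of which 3.38% were called lower and 5.62% higher. Sc5d, a late sterol desaturase, stood at 244, 283 and 290 CPM in the controls against 219, 149 and 164 CPM in Cre cTEC, and fell by 0.61 (SE 0.14, adjusted p = 0.00642). All of its Cre libraries were below all controls. Mylip, the ubiquitin ligase of lipoprotein receptors and a known liver X receptor target, stood at 104, 100.2 and 101 CPM in control cTEC against 56.0, 44.5 and 57.6 CPM in Cre cTEC. Its groups were far apart, and it fell by 0.94 (SE 0.11, adjusted p = 2.62e-05). Its mTEC level was 135, 136 and 126 CPM in the controls against 96.0, 105 and 89.2 CPM in Cre libraries, a fall by 0.45 (SE 0.11, adjusted p = 0.0313) that was lost without any 1 of libraries 1 to 6 and with the offsets.

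Vldlr, a receptor for triglyceride-rich lipoproteins, moved in opposite directions. It stood at 161, 152 and 141 CPM in control cTEC against 104, 107 and 126 CPM in Cre cTEC, a fall by 0.43 (SE 0.11, adjusted p = 0.0129) that was lost without library 7 or 10 and without a filter. Its mTEC level was 21.3, 18.6 and 19.2 CPM in the controls against 29.5, 30.0 and 25.8 CPM in Cre libraries, a rise of 0.52 (SE 0.12, adjusted p = 0.0294) that was lost without library 1, 2, 3, 4 or 5, without a filter and with the offsets. Neither pair of groups overlapped, and the difference of the effects was -0.95 (SE 0.16, adjusted p = 0.00263). Gramd1b, a carrier of cholesterol from the plasma membrane, stood at 96.8, 106 and 107 CPM in control mTEC against 72.9, 71.2 and 73.9 CPM in Cre mTEC. It fell by 0.50 (SE 0.12, adjusted p = 0.0358) without overlap, a call lost without any 1 of libraries 1 to 6 and with the offsets. In mTEC 2 of the 31 genes fell and 1 rose, against 1.49% and 0.585% of all genes tested.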

How the data were processed

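RNA from sorted cTEC and mTEC was amplified with a SMARTer low-input kit, per the labels' protocols. The mm9 build, HTSeq, STAR and edgeR are named, without versions, per the submitters' processing notes; their roles and the strand setting are not stated there. The deposited table holds raw read counts per gene symbol for 12 libraries, of 4804697 to 11159013 counts each; the chi-square per degree of freedom between replicates was 3.08 to 12.1, so no library is a copy of another.

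Libraries were assigned to groups from cell type and genotype labels. All 12 were fitted in 1 model of 4 groups with edgeR 4.0.16 (R 4.3.3): TMM scaling, a filter on low counts by group, quasi-likelihood tests (8 residual degrees of freedom), and p-values adjusted by Benjamini-Hochberg over 17268 genes with a threshold of 0.05. The fit was first tested on simulated counts. Alternatives used DESeq2 1.42.0 and limma 3.58.1, other filters and scalings, and each library left out.

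The members and gene lists were chosen with earlier results of these data known. All members are named by role, other genes where they passed in a genotype comparison; some genes of the second list are not reported here and are not in its counts. Promoters and gene overlaps come from RefSeq and GENCODE M21 on GRCm38, not mm9, and no position was converted. Standard errors cover the spread between libraries only. Reads of overlapping genes on opposite strands cannot be told apart: this touches Fdft1, Cyp51, Ggps1, Lss, Idi1, Npc1 and Scap. Fdps and Tm7sf2 share exonic bases with a gene on their own strand.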

Additional observations from a re-analysis of the deposited data

Results flagged for a closer look

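For 3 of the 27 members and 1 of the 31 further genes tested, the effect of genotype differed between cTEC and mTEC. This was by a test of the difference itself (edgeR's quasi-likelihood test, adjusted over all genes tested). All had the lower value in cTEC, against 1.08% of all genes tested called lower and 2.92% called higher. The effect in cTEC minus that in mTEC was -1.41 on the log2 scale for Fdft1, squalene synthase, with adjusted p = 0.0134. It was -0.89 for Sc4mol, the C4-methylsterol oxidase, with adjusted p = 0.0427, and -0.59 for Nceh1, the cholesteryl ester hydrolase, with adjusted p = 0.0395. For Vldlr, the lipoprotein receptor, it was -0.95 with adjusted p = 0.00263, and the estimates in cTEC and mTEC had opposite signs. The Sc4mol and Nceh1 calls are close to the threshold: each was lost in 9 of the 12 fits with 1 library left out, Sc4mol also with DESeq2 size factors, the 5 CPM filter and the length and GC offsets (adjusted p up to 0.136), and Nceh1 without a filter and with the offsets (adjusted p up to 0.239).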

How the results depend on the processing

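In Cre against control cTEC, 15 members were called lower; the alternatives to the full fit gave 11 to 16, and leaving out 1 library 9 to 16. The 1 member called higher became 0 with length and GC offsets and 0 to 1 with a library left out. In mTEC the count lower, 0, became 2 with DESeq2 size factors, 4 with DESeq2, 7 with voom and quality weights, 5 without a filter, 2 with a 5 CPM filter, 2 with length and GC offsets, 5 with only the libraries compared, and 0 to 6 with a library left out; 0 were higher throughout the leave-outs. For the difference of effects, 3 lower became 1 with the offsets and 1 to 4 with a library left out, and 0 higher became 1 with DESeq2, 2 with voom, 1 with the 5 CPM filter and 0 to 2 with a library left out. Between cell types in controls, 6 higher became 3 with the offsets (6 to 7 with a library left out), and 13 lower became 12 to 16 with a library left out. In Cre libraries 7 higher became 4 with the offsets (6 to 9 with a library left out), and 9 lower became 6 to 10. The cause was not tested. No call of a member changed direction under any alternative run. Over all genes in mTEC, 257 lower became 473 with DESeq2, 674 without a filter, 685 with only the libraries compared and 1099 with voom, and 101 higher became 375, 341 and 573 with the last 3. In cTEC 584 lower became 877 with voom and 380 with the offsets. For the difference, 187 lower became 587 with voom and 99 with the offsets, and 505 higher became 901 with DESeq2, 861 without a filter, 811 with voom and 254 with the offsets. With 1 library left out, the counts over all genes that the background shares rest on ran from 361 to 858 lower and 599 to 1436 higher in cTEC, from 61 to 736 and 13 to 248 in mTEC, and from 90 to 562 and 275 to 1082 for the difference. Depth limits Idi1 and Stard4, whose lowest libraries held 2 and 9 counts. No paired analysis was possible because no library number is shared by 2 groups.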
